A study of Mus musculus with 3 samples.

Results

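The genes described here encode the subunits of the proteasome, the protease complex that degrades ubiquitin-tagged proteins, together with 3 factors that help to assemble it. Members were all genes whose single platform symbol was Psma, Psmb, Psmc or Psmd followed by a number, without Psmb8 and Psmb9. That rule found 37 of the 18193 genes read by a probe set with 1 symbol. The probe set with the highest mean over the 3 arrays stood for each gene. Of the 37 members, 14 formed the constitutive core, 17 the regulatory particle, 3 were assembly chaperones of the base (Psmd5, Psmd9 and Psmd10) and 3 were tissue-restricted or inducible core subunits (Psma8, Psmb10 and Psmb11). Psmd5, Psmd9 and Psmd10 leave the finished particle and are not subunits of it, against the working name of the list, so they were counted apart.

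The proteasome core is a barrel of stacked rings. Outer alpha rings gate the channel and inner beta rings carry the proteolytic sites. The regulatory particle caps the barrel, binds ubiquitin chains, removes them in its lid and unfolds the substrate with the ATPase ring of its base. In hepatocytes, as in other cells, the transcription factor NRF1 (gene Nfe2l1) is known to raise subunit genes together when proteasome capacity is short, and interferon is known to induce the alternative catalytic subunits encoded by Psmb8, Psmb9 and Psmb10.

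RNA came from whole livers of mice on a mixed background that were given virus at 3 months of age, by 1 intraperitoneal injection of 400 microL, and were sampled 1 week later. Control mice (n = 2) received MUP-EGFP-AAV8, which carries a green fluorescent protein, and the Cre mouse (n = 1) received MUP-iCre-AAV8, which carries a recombinase that cuts out floxed DNA. Both are adeno-associated viruses. The design text describes floxed Hnf4a mice for either virus, but the sample labels give wild type for the controls and HNF4alpha knockout for the Cre liver, so genotype and virus cannot be told apart. HNF4alpha is a nuclear receptor that drives hepatocyte genes.

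Each array gave a log2 expression value per probe set, and differences below are the Cre value minus the mean of the controls, with limma's moderated standard error (SE). A gene rose or fell where limma's Benjamini-Hochberg adjusted p over 12735 fitted genes was under 0.05, and with 1 Cre array the test takes the spread of the controls for that group too. Hnf4a, the targeted gene, was lower in the Cre liver on all 4 of its probe sets. The difference was -0.55 ± 0.09 SE on the probe set that stood for the gene (limma adjusted p = 0.0401, passed in 6 of 9 other settings) and -1.18 ± 0.14 SE on another. In the fit over all 25660 probe sets, only the reading of -1.18 passed. The one of -0.55 missed the threshold there, as did those of -0.67 and -0.61 on the remaining probe sets. Where these probes lie relative to the deleted DNA was not determined, so they check the label only in part. Of 8 hepatocyte marker genes measured, all were well above the filter value of 3.77 used for dim genes, so the tissue label held. Among them Asgr1 fell by 5.02, Apob fell by 2.96 and Tat fell by 1.02. The other 5 did not pass, with Cps1 at 0.33, Fgb at 0.16, Apoa1 at 0.09, Ttr at -0.10 and Alb at -0.11. The markers thus did not fall as a set. In whole liver, fewer cells of a type and less RNA per cell cannot be told apart.

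Promoter sequences of 4 subunit genes are shown because they hold matches to the antioxidant response element, the site of NRF1 and NRF2, whose transcripts are described below. They run 5′ to 3′ from 250 bases before to 50 after a RefSeq gene start on GRCm38.p6. Capitals mark matches to the core of that element, TGACNNNGC, on either strand.
Psmb5 (chr14:54617946-54618245, minus strand): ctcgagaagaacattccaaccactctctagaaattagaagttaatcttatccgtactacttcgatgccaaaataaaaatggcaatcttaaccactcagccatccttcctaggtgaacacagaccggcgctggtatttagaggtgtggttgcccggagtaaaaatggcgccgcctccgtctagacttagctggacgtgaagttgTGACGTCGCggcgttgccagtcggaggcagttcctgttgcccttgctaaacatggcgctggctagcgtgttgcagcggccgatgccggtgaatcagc
Psmb6 (chr11:70525107-70525406, plus strand): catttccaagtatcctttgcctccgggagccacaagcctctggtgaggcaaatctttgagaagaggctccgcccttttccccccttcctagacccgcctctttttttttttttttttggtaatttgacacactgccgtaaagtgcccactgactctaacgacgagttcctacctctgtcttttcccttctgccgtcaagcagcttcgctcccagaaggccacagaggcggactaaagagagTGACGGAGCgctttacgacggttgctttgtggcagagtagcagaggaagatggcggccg
Psmc6 (chr14:45329574-45329873, plus strand): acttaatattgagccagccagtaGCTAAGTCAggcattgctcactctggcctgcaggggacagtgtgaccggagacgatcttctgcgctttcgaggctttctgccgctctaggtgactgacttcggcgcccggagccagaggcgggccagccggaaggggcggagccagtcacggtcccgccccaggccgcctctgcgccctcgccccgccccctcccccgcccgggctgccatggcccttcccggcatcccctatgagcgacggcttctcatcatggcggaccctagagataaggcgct
Psmd12 (chr11:107479278-107479577, plus strand): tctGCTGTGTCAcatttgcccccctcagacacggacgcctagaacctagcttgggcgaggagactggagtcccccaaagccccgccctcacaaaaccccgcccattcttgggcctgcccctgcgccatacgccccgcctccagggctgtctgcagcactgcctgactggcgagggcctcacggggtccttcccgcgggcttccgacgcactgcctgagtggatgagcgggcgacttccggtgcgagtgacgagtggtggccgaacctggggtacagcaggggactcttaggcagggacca

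RefSeq promoters were matched for 30 of the 37 members, with 32 windows in all. The antioxidant response element core was present in 5 of the 32 windows (15.6%), against 12.4% of all 32851 promoter windows. Psmb5 held it at bases -47 to -39 and Psmb6 at -9 to -1, both in the sense direction, and Psmc6 and Psmd12 held it reversed at -227 to -219 and -247 to -239. Psmd9, which is not printed, held it at -31 to -23. Its difference was -0.42, against 0.26 for Psmb5, 0.26 for Psmb6, 0.13 for Psmc6 and 0.19 for Psmd12. A link between the element and these differences was not tested. CAAAGTCCA, a motif specific to HNF4 receptors, was found in 0 member windows and in 0.475% of all windows, and CCAAT, the NF-Y box, in 12 windows (37.5%), against 37.4% of all. Both strands were searched, and no member held both a CCAAT box and the response element core. A match is a string of letters, not a measured site. The rule set for printing, members past the threshold that held a match, selected none. The windows printed were therefore chosen after the matches were seen. All belong to genes with positive differences, which leaves out Psmd9.

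Psmb10 was the 1 member that rose. The constitutive subunits lay slightly higher in the Cre liver, by a median of 0.26 in the core and 0.22 in the regulatory particle, and 0 of these 31 genes passed limma's test. Of the 36 members fitted, 1 rose (6.71% of all genes did) and 0 fell (5.21% of all genes did). Unadjusted limma p values under 0.05 were found for 8 members that were higher (20.4% of all genes) and for 1 that was lower (10.8%), so the first count stood near the background and the second below it. By position alone, without a test, the Cre value lay above both controls in 31 of the 36 members, against 49.7% of all genes, and below both in 3, against 33.6%. The share of members called was below the background of 11.9% of genes called in either direction. At least 1 log2 unit from both controls lay 1 member, Psmb10, against 7.4% of all genes. The 3 members below both controls were Psma6, Psmd1 and Psmd9, and Psmc4 and Psma8 lay between the controls. Psmb11 was not fitted because it was dim on every array.

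The median difference over the 36 fitted members was 0.24, a fold of 1.18, against 0.09 over all genes fitted. Set against each control alone, the member median was 0.22 and 0.24. The controls differed from each other by a median of 0.11 in the members, in either direction. Genes of similar brightness were also compared, a step added after the data were seen: of 1288 fitted genes with a control mean from 9 up to 11, 49.1% lay above both controls, with a median of 0.06, and of the 24 members in that range 21 did, with a median of 0.22. Members of 1 complex share their biology and their arrays, so these counts are not independent observations. The offset depended on scaling. Centring each array on its median over the fitted genes lowered every difference by 0.16, which left a member median of 0.08 against -0.07 for all genes, with 20 of 36 members above both controls against 35.4% of all genes. Under that scaling 791 genes rose and 1105 fell, in place of 855 and 663, so 41.7% of calls were higher in place of 56.3%.

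**Figure D1:**
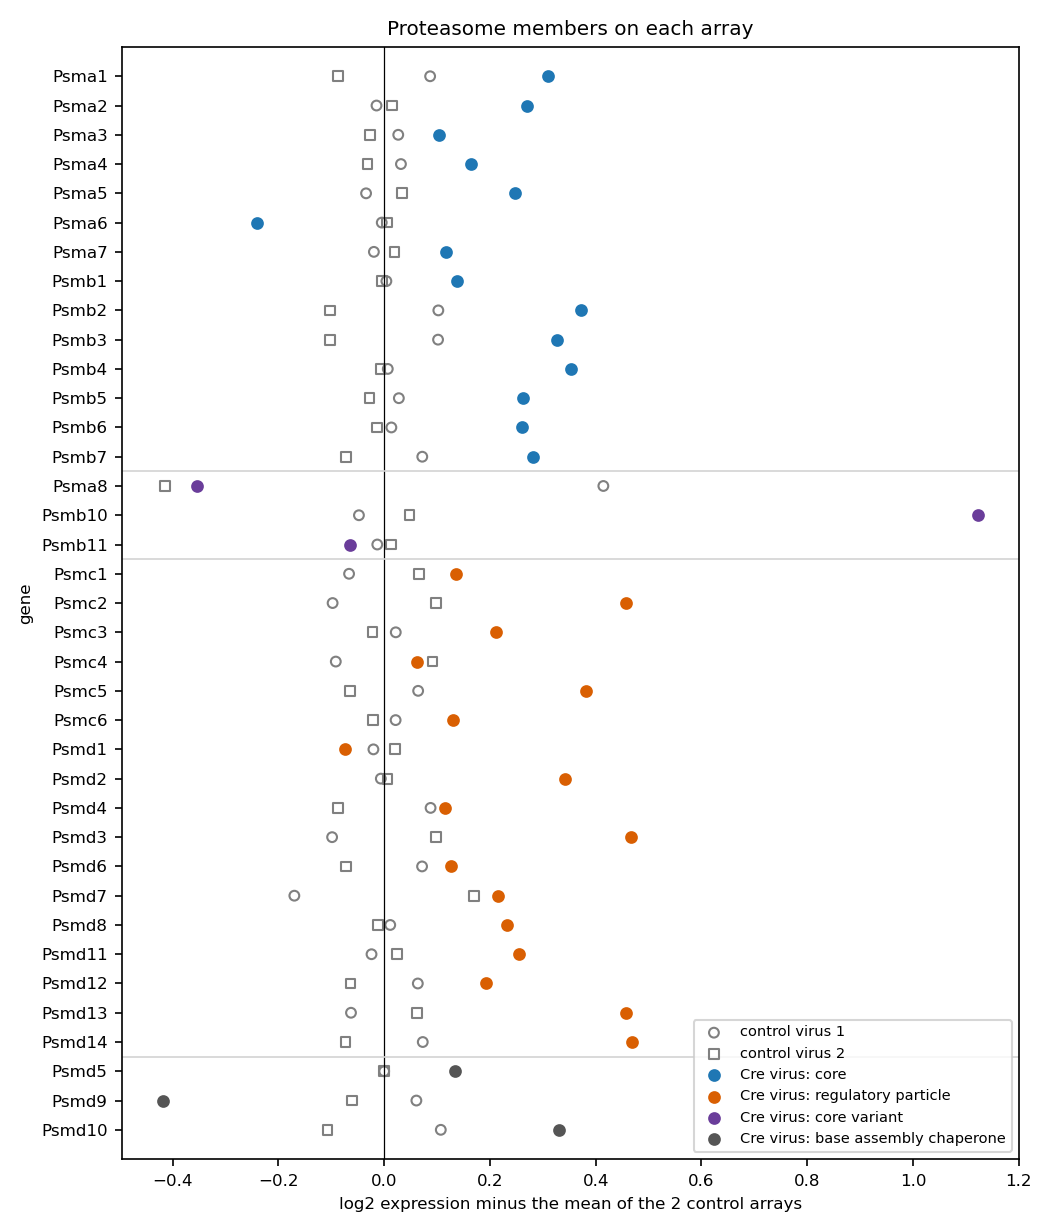
Log2 expression of each of the 37 members on each array, minus the mean of the 2 control arrays (horizontal axis), with open symbols for the controls and filled symbols for the Cre liver, coloured by place in the complex. Most filled symbols lie a little to the right of both open ones, Psmb10 stands far to the right at 1.12, and Psma6, Psmd1 and Psmd9 lie to the left of both.

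The alpha ring genes, whose products form the gate of the channel, were mostly a little higher in the Cre liver, with 6 of 7 above both controls (49.7% of all genes were), a median of 0.16 and 0 past the test. Psma3 and Psma7 turned negative with median centring. Psma1 had the largest difference in this ring, at 9.84 and 9.67 on the control arrays, against 10.06 with Cre virus (0.31 ± 0.13 SE, limma adjusted p = 0.206). Psma2 was at 10.45 and 10.48 against 10.73, and Psma5 at 10.18 and 10.24 against 10.46. In each of these genes the Cre value lay above both controls by more than the gap between them. Psma4 (0.16) and Psma7 (0.12) were smaller, as was Psma3, at 11.35 and 11.29 against 11.42 (0.10).

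Psma6 was the exception of the core, at 10.73 and 10.74 on the control arrays, against 10.50 with Cre virus (-0.24 ± 0.10 SE, limma adjusted p = 0.206). The controls were nearly equal, and the Cre liver lay below both. A second probe set of Psma6 went the other way, at 10.44 and 10.65 against 10.80 (0.26). The direction of this gene was thus not settled by the array. Psma7 was split in the same manner, at 0.12 on the probe set that stood for it and -0.17 on its other one.

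In the beta ring all 7 genes lay above both controls (49.7% of all genes did), between 0.14 for Psmb1 and 0.37 for Psmb2, with a median of 0.28, and Psmb1 turned negative with median centring. Psmb2, a structural beta subunit, was at 9.62 and 9.41 on the control arrays, against 9.89 with Cre virus (0.37 ± 0.14 SE, limma adjusted p = 0.172). Psmb4, also structural, was at 11.03 and 11.02 against 11.38 (0.35 ± 0.10 SE, limma adjusted p = 0.0995), the lowest adjusted p in the core. Its second probe set was at 0.39, and both probe sets of Psmb3 lay close together at 0.33 and 0.36.

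The genes for the 3 constitutive proteolytic subunits had nearly the same difference. Psmb5, which encodes the chymotrypsin-like subunit, was at 10.09 and 10.03 on the control arrays, against 10.32 with Cre virus (0.26 ± 0.11 SE). Psmb6, the caspase-like subunit, was at 10.41 and 10.38 against 10.65 (0.26 ± 0.11 SE). Psmb7, the trypsin-like subunit, was at 9.02 and 8.88 against 9.23 (0.28 ± 0.13 SE). The Cre value was above both controls in each, and the limma adjusted p values ran from 0.188 to 0.241. Each gene was read by 1 probe set, so no second reading was at hand.

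Of the inducible catalytic subunits, Psmb10 and Psmb8 rose and Psmb9 did not pass. Psmb10, which takes the place of Psmb7 in the immunoproteasome, was at 7.91 and 8.01 on the control arrays, against 9.08 with Cre virus. The Cre value lay far above both controls, a 2.18-fold rise (1.12 ± 0.13 SE, limma adjusted p = 0.0181), and it passed in all 9 other settings fitted, with adjusted p from 0.00356 to 0.0319. Psmb10 was read by 1 probe set, so the settings that change the choice of probe set could not alter its difference. Psmb8 and Psmb9, not counted as members, replace Psmb5 and Psmb6. Psmb8 was at 7.81 and 7.68 against 8.71 and rose (0.96 ± 0.14 SE, limma adjusted p = 0.0282), but not when its probe sets were averaged (0.55, limma adjusted p = 0.0696). Psmb9 was at 7.62 and 7.85 against 8.02 (0.28 ± 0.16 SE, limma adjusted p = 0.318). Psme1, a subunit of the interferon-induced activator that opens the core, was at 9.74 and 9.82 against 10.46 and rose (0.69 ± 0.11 SE, limma adjusted p = 0.0369; 0.0715 without an intensity trend and 0.0598 with no filter).

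Markers of other cells and of interferon were read beside these genes, since leukocytes express the inducible subunits strongly. The 10 Kupffer cell or macrophage markers had a summed linear signal of 1103 and 1744 on the control arrays, against 2195 with Cre virus. Of these 1 rose, Marco. The 8 interferon response genes summed to 532 and 513 against 877, with Irf1, Tap1 and Gbp2 past the test. The 7 T or NK cell markers summed to 122 and 128 against 126, and Cd3g, Nkg7 and Gzma were under the filter value on every array. The 3 B cell markers summed to 47.0 and 36.5 against 31.0, and the 5 neutrophil or monocyte markers to 136 and 127 against 110. Endothelial markers (6 genes) summed to 1023 and 1153 against 1141, stellate markers (6 genes) to 1991 and 2113 against 2593, and cholangiocyte markers (4 genes) to 57.4 and 70.7 against 149. Of the cholangiocyte genes 1 rose, Sox9 (2.35, limma adjusted p = 0.0452), and Epcam did not pass. Ms4a1, S100a8, Mpo, Krt7 and Mx1 were also under the filter value throughout. The macrophage, interferon, stellate and cholangiocyte sums were highest in the Cre liver, as was Psmb10. A sum can rest on few genes. Besides Sox9, Epcam was at 0.28 and Krt19 at -0.16. Of the interferon genes not called, Oas1a was at 0.41, Irf7 at 0.17, Ifit1 at 0.10 and Ifit3 at -0.14. Between the controls, whose macrophage sums were 1103 and 1744, Psmb10 differed by 0.10. The part of these cells or of interferon in the rise of Psmb10 was not tested.

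The other variant core genes were near the array background. Psma8, a testis form of the alpha ring, was at 4.61 and 3.78 on the control arrays, against 3.84 with Cre virus, so 1 control alone stood apart. Psmb11, the thymus form, was at 3.27 and 3.29 against 3.22, below the filter value on every array. No difference can be read from either gene at these levels.

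**Figure D2:**
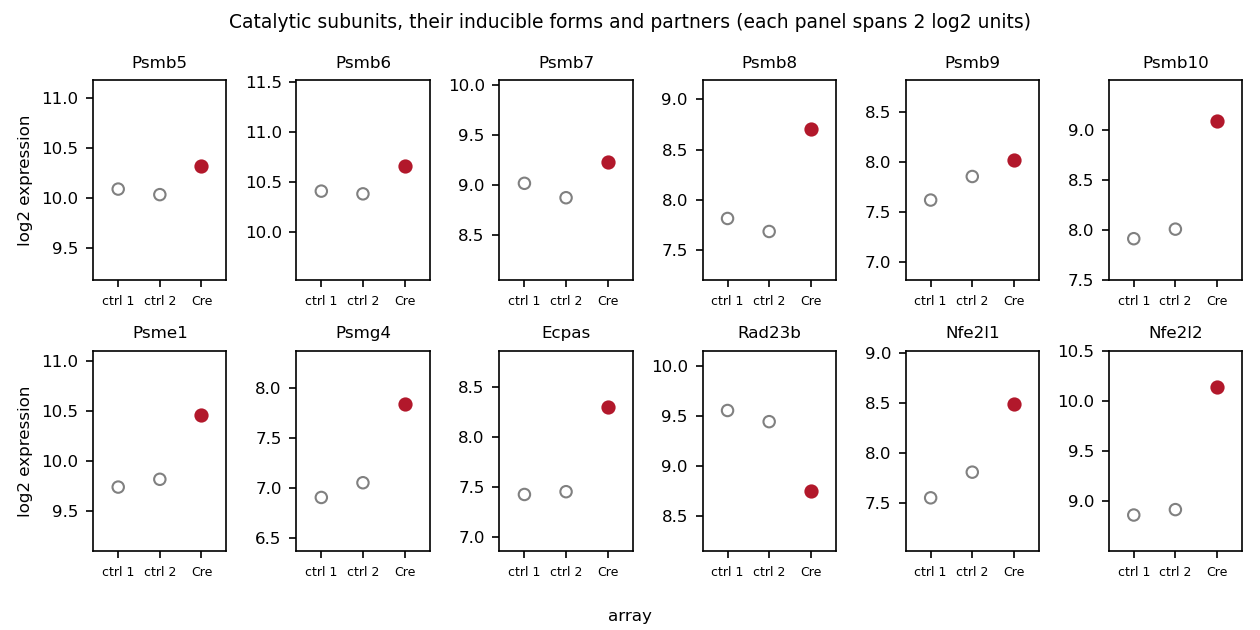
Log2 expression (vertical axis, 2 log2 units in each panel) on each array for the constitutive catalytic subunits, their inducible forms, 4 partner genes and the NRF1 and NRF2 genes, with open circles for the 2 controls and a filled circle for the Cre liver. The Cre circle stands 0.26 to 0.28 above the control mean in Psmb5, Psmb6 and Psmb7, 1.12 above it in Psmb10 and 1.26 above it in Nfe2l2.

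In the regulatory particle 15 of 17 genes lay above both controls (49.7% of all genes did), with a median of 0.22, and 0 passed. The lid, which removes ubiquitin from the substrate, had all 8 genes above both controls, against the same 49.7%, between 0.13 for Psmd6 and 0.47 for Psmd14, with a median of 0.24, and Psmd6 turned negative with median centring. Psmd14, the lid's deubiquitinase, had the largest difference of the 31 constitutive subunits, at 9.53 and 9.38 on the control arrays, against 9.92 with Cre virus (0.47 ± 0.13 SE, a fold of 1.38, limma adjusted p = 0.0962). Psmd3, a lid scaffold gene, was at 7.80 and 7.996 against 8.36 (0.47 ± 0.15 SE, limma adjusted p = 0.133). In both the Cre liver exceeded the higher control by more than the controls differed. Psmd7 was at 7.90 and 8.24 against 8.29, and there the controls differed from each other more than the Cre liver differed from the nearer one. Psmd11 (0.25), Psmd8 (0.23) and Psmd12 (0.19) did not pass either.

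Psmd13, another lid gene, depended on the probe set. The one that stood for the gene was at 7.82 and 7.94 against 8.34 (0.46 ± 0.14 SE), and another was at 0.38. The third, at 0.45, was dim, at 3.56 and 4.15 against 4.30, and its controls differed by more than 0.45. The fourth was at 6.28 and 5.96 on the control arrays, against 4.60 with Cre virus (-1.52 ± 0.21 SE, limma adjusted p = 0.0402 over 25660 probe sets). The gap between the probe sets of Psmd13, 1.97, was the largest of the 17 members read more than once. Which transcript the fourth reads was not determined here.

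The base ATPases, which unfold the substrate and thread it into the core, had 5 of 6 genes above both controls (49.7% of all genes were) and a median of 0.17. Psmc1, Psmc4 and Psmc6 turned negative with median centring. Psmc2 was at 10.31 and 10.51 on the control arrays, against 10.87 with Cre virus (0.46 ± 0.13 SE, limma adjusted p = 0.107), and its other probe set past the filter was at 0.32. It passed after quantile normalization (0.46, limma adjusted p = 0.0431), and averaging its probe sets lowered it to 0.18 (limma adjusted p = 0.417). That average includes a probe set under the filter value, at 2.83 and 2.86 against 2.61. Psmc5 was at 9.49 and 9.36 against 9.80 (0.38 ± 0.13 SE). Psmc4 was the lowest of the ring, at 9.79 and 9.98 against 9.95, so its Cre value fell inside the range of the controls. Psmc3 (0.21), Psmc1 (0.14) and Psmc6 (0.13) differed by small amounts.

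Of the large base scaffold genes, Psmd2 was at 10.01 and 10.03 on the control arrays, against 10.36 with Cre virus (0.34 ± 0.11 SE, limma adjusted p = 0.124). Psmd1 was at 9.86 and 9.90 against 9.80, the lowest difference of the regulatory particle (-0.07 ± 0.11 SE). The Cre liver was thus above both controls in one scaffold gene and just below both in the other. Psmd4, the intrinsic ubiquitin receptor, was at 10.21 and 10.04 against 10.24.

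The base assembly chaperones went separate ways. Psmd9 was at 8.44 and 8.32 on the control arrays, against 7.96 with Cre virus, the lowest difference of all fitted members (-0.42 ± 0.14 SE, limma adjusted p = 0.132). Psmd10, also known as gankyrin, was at 6.78 and 6.57 against 7.005 (0.33 ± 0.17 SE), and Psmd5 was at 7.37 on both control arrays against 7.50. The Cre value was below both controls in Psmd9 and above both in the other two, and 0 of the 3 passed limma's test.

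The medians of core and regulatory particle were 0.26 and 0.22. Both stayed above the median of all genes in each of the 10 settings compared. Moderation does not enter a median, and centring moves all genes alike, so those settings could not change this order. No test was made between them, since genes of 1 complex are not replicates.

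**Figure D3:**
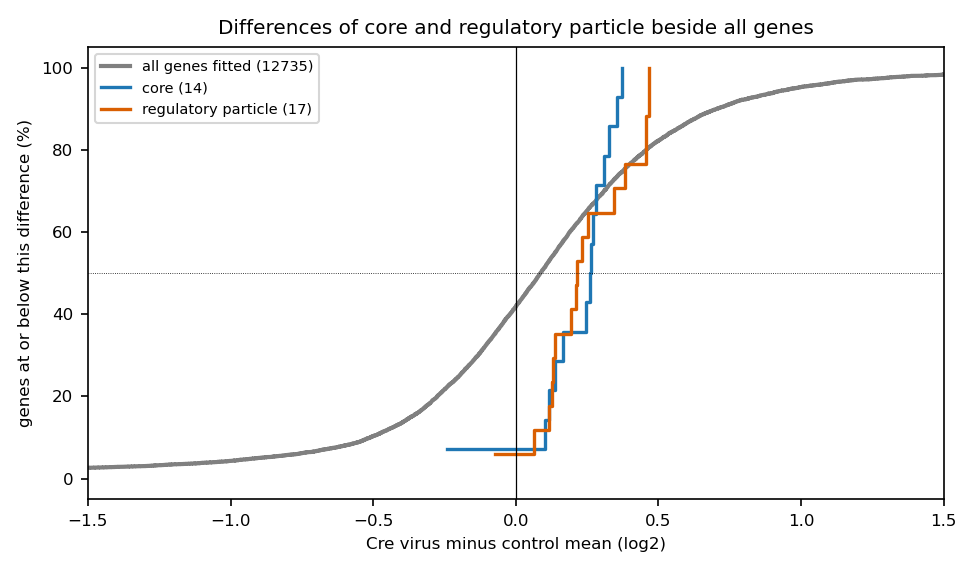
Share of genes (vertical axis, percent) at or below each Cre minus control difference (horizontal axis, log2), for the 14 core genes, the 17 regulatory particle genes and all 12735 genes fitted, the last cut at 1.5 on both sides. The core and regulatory curves cross 50% at 0.26 and 0.22, right of all genes at 0.09.

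Several members were read by more than 1 probe set, which gave a check on single readings. Of the 75 member probe sets, 65 had a mean at or above the filter value, and 17 members had more than 1 of these. All probe sets of a member lay on the same side of 0 in 10 of the 17. They were split in Psma3, Psma6, Psma7, Psmc4, Psmd4, Psmd11 and Psmd13. Psmd11 had 6 such probe sets, from -0.61 to 0.32, with the one that stood for the gene at 0.25. The mean of all probe sets, those under the filter value included, was also used in place of the brightest. The member median was then 0.17, 27 of 36 members were positive, and 25 lay above both controls (46.5% of all genes did).

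**Figure D4:**
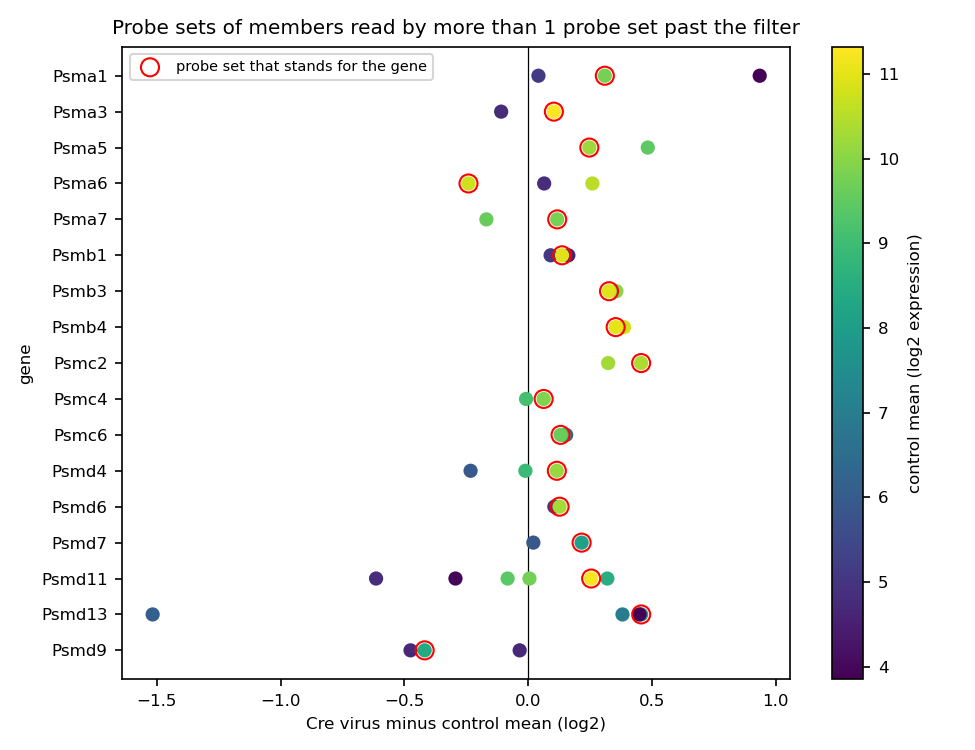
Cre minus control difference (horizontal axis, log2) of every probe set past the filter for the 17 members with more than 1, coloured by control mean, with a red ring on the probe set that stood for the gene. Bright probe sets of Psmb3, Psmb4 and Psmc2 lie together, and those of Psma6, Psmd11 and Psmd13 are spread to both sides of 0.

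Of 20 fitted partners (assembly factors, activators, shuttle proteins and associated enzymes), 4 rose and 1 fell, with a median of 0.21. For this list and those that follow, 6.71% of all genes rose, 5.21% fell and the median was 0.09. Besides Psmb8 and Psme1, these were Psmg4, an assembly chaperone of the core, at 6.91 and 7.05 on the control arrays, against 7.84 with Cre virus (0.86 ± 0.15 SE, limma adjusted p = 0.0418), and Ecpas, a scaffold that binds the whole particle, at 7.43 and 7.45 against 8.30 (0.86 ± 0.13 SE, limma adjusted p = 0.0319). Both were higher than either control, but as means of their probe sets they were at 0.35 and 0.40 and did not pass. With no filter neither passed (limma adjusted p = 0.0672 for Psmg4 and 0.0515 for Ecpas), and Psmg4 did not without a trend or without shared probe sets. Rad23b, a shuttle factor that brings ubiquitin-tagged proteins to the proteasome, fell from 9.55 and 9.44 to 8.75 (-0.75 ± 0.13 SE, limma adjusted p = 0.0373). On the mean of its probe sets Rad23b was at -0.09, and leaving out shared or mixed probe sets at -0.13, neither of which passed, and it also missed the threshold without an intensity trend and with no filter.

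Pomp, the chaperone that matures the core, was at 10.86 and 10.75 against 11.04 (0.23 ± 0.11 SE), close to the core genes it serves. Psmg1 (0.05), Psmg2 (-0.24) and Psmg3 (-0.32), the other core assembly chaperones measured, did not pass. The assembly factors thus did not share 1 direction. Psmf1, an inhibitor, was at 0.32 and Psme4, an activator, at -0.13. Usp14 (0.23) and Uchl5 (-0.29), deubiquitinases of the regulatory particle, did not pass either.

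Among the genes of the NRF1 route, 1 of 11 fitted rose and 0 fell by limma's test. Nfe2l2, which encodes NRF2, an oxidative stress factor that binds the same element, was at 8.86 and 8.91 on the control arrays, against 10.14 with Cre virus, a 2.39-fold rise (1.26 ± 0.12 SE, limma adjusted p = 0.0117). It kept its call in all 9 other settings, with 0.63 when its probe sets were averaged. Nfe2l1, which encodes NRF1, was at 7.55 and 7.80 against 8.49 and did not pass (0.81 ± 0.17 SE, limma adjusted p = 0.0578), but did in 3 of 8 other settings, with adjusted p from 0.0256 to 0.092. Mafg, a small Maf partner, was at 8.67 and 8.57 against 9.23 (0.61 ± 0.13 SE, limma adjusted p = 0.0587), and Mafk and Maff at -0.39 and -0.38. Ngly1 and Syvn1, which act on NRF1 at the endoplasmic reticulum, were at 0.01 and -0.12.

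In the ubiquitin and p97 list 1 of 15 genes rose and 0 fell by limma's test, with a median of 0.21. Ube2d1, a ubiquitin-conjugating enzyme, was at 4.19 and 4.17 against 5.15 (0.97 ± 0.17 SE, limma adjusted p = 0.0409; 0.0684 with no filter and 0.0533 without shared or mixed probe sets). Vcp, the p97 ATPase that extracts proteins for degradation, was at 11.22 and 11.26 against 11.69 (0.45 ± 0.10 SE, limma adjusted p = 0.0639). Its value lay above both controls. Ube2n (0.49) and Ube2r2 (-0.40) did not pass.

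Among 14 cytosolic chaperone genes, Tcp1, of the chaperonin ring (0.86 ± 0.12 SE), and Hspb1, a small heat shock protein (0.81 ± 0.12 SE), rose and 0 fell by limma's test. Hspa1a, an inducible heat shock protein, was at 3.52 and 3.10 against 5.01. Both its control values lay under the filter value and it entered the fit only through the Cre array, so its call is not counted here. The median over the 14 genes, Hspa1a included, was 0.45. The classical heat shock gene Dnajb1 was at -0.39 and Hsph1 at -0.26, and neither passed. Hspa1b was at 10.00 and 8.76 in the controls against 9.95, so the controls alone spanned its range. Autophagy, the other main route of protein breakdown, had 1 of 11 genes higher and 1 lower past the test, with a median of 0.12. Ulk1, the initiating kinase, rose (0.88 ± 0.13 SE; 0.50 when probe sets were averaged, where it did not pass), Gabarapl1 fell (-0.53 ± 0.10 SE, limma adjusted p = 0.0475, and 0.103 without a trend, 0.0758 with no filter and 0.0914 without shared or mixed probe sets), and Atg5 (-0.79) and Becn1 (0.53) did not pass. Sqstm1, a receptor for ubiquitin-tagged cargo, was at 0.38.

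Small differences were hard to resolve with 3 arrays. Simulated data had the same number of arrays, with random noise drawn around the control means at the spread that the fit estimated. There the fit recovered 10.1% of genes changed by 1 log2 unit and 83.4% at 2 units. Each run changed 50 genes per size among 12735, a smaller share than the 11.9% called in the data. Recovery under the adjusted p depends on that share, so these rates may not hold for the real arrays. The 35 members without a call are not shown to be unchanged.

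**Figure D5:**
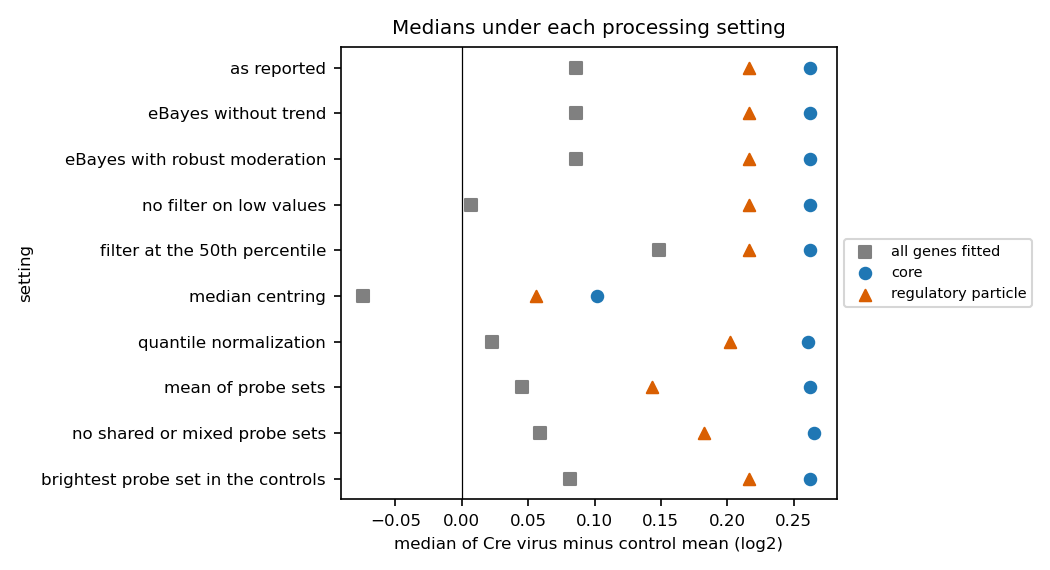
Median Cre minus control difference (horizontal axis, log2) of the core, the regulatory particle and all genes fitted under each of 10 processing settings. Both groups lie right of all genes in each setting, and median centring moves all 3 to the left by 0.16. The moderation settings and median centring could not change the order.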

How the data were processed

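Per the submitters' processing notes, the deposited values were made with Partek 6.5 and RMA. They were taken as log2 expression per probe set; the deposited log2 base was read from the values, and each fold rests on it. RMA equalises arrays, which hides a shift shared by all genes. Of 45101 probe sets, 64 were array controls, 34945 had 1 gene symbol, 932 several and 9160 none. Symbols were updated by Entrez ID for 34741. The brightest probe set stood for a gene, and the 12735 genes whose mean reached the 30th percentile of gene means (3.77) entered the fit with limma 3.58.1 in R 4.3.3 (lmFit, eBayes with an intensity trend; 1 residual and 3.18 prior degrees of freedom). P values are two-sided, with a threshold of 0.05. The labels call the controls biological replicates. Array medians were 4.18, 4.15 and 4.16, and their number limits the precision. Probe set tests covered 25660 probe sets past 3.77. The fit was tested on simulated data of this comparison (12735 genes, 20 runs, 50 genes changed per size, 6.00% false calls).

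The members, lists and motifs were chosen with earlier results of these data known. Values were printed by rule: members past the threshold, the 2 highest and lowest of core and regulatory particle, catalytic subunits, variants and chaperones. To these came up to 4 genes of largest difference per companion list, with others to describe roles. Outside this rule, array values were also given for Psma1, Psma2, Psma5, Psmc2, Psmc5, Psmd2, Psmd4, Psmd7 and Psmd13. Alternatives were other moderation, filters, scalings and probe set choices, and each control left out. Figures used matplotlib 3.10.9 in Python 3.11.15.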

Additional observations from a re-analysis of the deposited data

How the results depend on the processing

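Psmb10 rose in each of the 9 other settings fitted. With 1 probe set, its difference could not be altered by those that change the choice of probe set. The number of members that rose was 2 after quantile normalization and 3 at an adjusted p under 0.1, and 1 fell (Psmd13) without shared or mixed probe sets, which left 30 members. The other settings kept 1 and 0. The medians of all members, core and regulatory particle were 0.079, 0.10 and 0.056 with median centring; under quantile normalization they were 0.22, 0.26 and 0.20. They were 0.17, 0.26 and 0.14 as means of probe sets, and 0.19, 0.27 and 0.18 without shared or mixed probe sets. Leaving out 1 control gave 0.22 to 0.24, 0.22 to 0.27 and 0.22 to 0.23. These have no test, because no residual degrees of freedom remain. Without trend and with robust moderation the medians were the same, since moderation does not enter them. The core and regulatory particle kept all their genes under both other filters, so their medians could not move there. With those filters the median of all members moved by less than the spread between controls. So did the medians with the brightest probe set in the controls and with variants or chaperones counted in.

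Signs turned for genes without a call. With median centring, Psma3 was at -0.056, Psma7 at -0.043, Psmb1 at -0.023, Psmc1 at -0.024, Psmc4 at -0.098, Psmc6 at -0.029, Psmd4 at -0.044, Psmd5 at -0.026 and Psmd6 at -0.033. As means of probe sets, Psma3 was at -0.0025, Psma6 at 0.014, Psma7 at -0.026, Psmd4 at -0.043, Psmd7 at -0.010, Psmd11 at -0.12 and Psmd13 at -0.057. Those means take in probe sets under the filter value, as in Psma6, Psmd7 and Psmd11. Without shared or mixed probe sets, Psma3 was at -0.11, Psma7 at -0.17, Psmc4 at -0.0085 and Psmd13 at -1.52. Without control virus replicate 1, Psma8 was at 0.061 and Psmc4 at -0.029, and without control virus replicate 2 the chaperone gene Hspa1b was at -0.046. Apart from the shift by centring and the change of probe set, which those settings make by construction, the cause was not tested. No paired analysis was possible because there is 1 Cre array, so the groups share fewer than 2 replicate numbers.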
